A study of Mus musculus with 10 samples.

Results

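Tmem45b and Tmem45a encode related transmembrane proteins, and they were followed here in gonadal white adipose tissue of mice labelled as lacking Med19 in fat. They are 2 of the 40503 genes in the deposited table, and both were among the 17038 genes abundant enough to be tested. Tmem45b was chosen by its measured log2 change between KO-labelled and WT libraries, the lowest of all tested genes, and Tmem45a because it is its paralog. The values that chose Tmem45b are therefore given as a description, with no test, and the change of Tmem45a between the same groups is treated in the same way.

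The KO animals were female C57BL/6 mice with an inducible, adipose-specific deletion of Med19 (Med19-iAKO), a Mediator subunit gene. They were 12 weeks old and received tamoxifen at 100 mg/kg for 5 days, and the tissue was taken 14 days later. The controls, labelled WT, were female C57BL/6 mice of 12 weeks, and no source used here says whether they received tamoxifen, which promoter drove the deletion or how many lines were used. PolyA RNA was sequenced from 5 KO and 5 WT animals, with 1 library each, and each library is named by its group and its animal number. Values are RPKM, reads per kilobase of gene scaled to the size of each library. Over the genes detected in 3 or more libraries, 14441275 to 20179236 reads per library could be recovered from these values.

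TMEM45 proteins are membrane proteins with several predicted membrane-spanning segments, and no enzymatic or transport activity has been firmly assigned to them. In human cells, TMEM45A is known as a gene induced by low oxygen in cancer cells and as a protein of the trans-Golgi network of keratinocytes. TMEM45B has been described as a membrane protein that restricts alphaviruses in cultured cells, and its gene has been linked to inflammatory pain in mice. In these bulk tissue libraries, fewer cells of a type and less RNA per cell cannot be told apart.

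The transcripts of the family compared here differ in their letters, which bears on whether their reads can be assigned to the right copy. In GENCODE M21 (GRCm38), Tmem45b (ENSMUSG00000041737) lies on chromosome 9, and Tmem45a (ENSMUSG00000022754) and a further copy, Tmem45a2 (ENSMUSG00000046748), lie on chromosome 16. The coding sequence of the Tmem45b transcript ENSMUST00000048050 has 837 bases (278 codons before the stop), and that of the Tmem45a transcript ENSMUST00000023435 has 822 bases (273 codons). In a global alignment of these coding sequences, 490 of 796 aligned bases were identical (61.6%). The longest run of bases that both transcripts share is 20 bases long and lies in the coding part. It is shown here in capitals with the coding bases around it, written 5′ to 3′, to show how quickly the copies diverge on either side.
Tmem45b coding bases 542 to 601: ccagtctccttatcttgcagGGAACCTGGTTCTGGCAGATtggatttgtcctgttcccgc
Tmem45a coding bases 545 to 604: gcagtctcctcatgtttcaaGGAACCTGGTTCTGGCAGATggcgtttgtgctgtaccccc
No stretch of 25 bases occurred in both of these transcripts. A read of 25 bases or more that matched one without a mismatch could thus not match the other without a mismatch. Matches with mismatches and the other Tmem45a transcripts were not examined. No source used here gives the read length. Tmem45b and the Tmem45a2 transcript ENSMUST00000067173 shared 58.7% of aligned coding bases, with a longest common run of 10 bases. In GENCODE M21 the 5′ end of Tmem45b overlaps the gene 4930434F21Rik on the opposite strand. Whether the authors counted reads by strand is not stated, so Tmem45b reads and reads of that gene cannot be told apart there. The length behind the deposited Tmem45b values was 1572 bases, against 1799 for its M21 transcript, so the annotation that was counted may differ.

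Med19 itself did not check the labels. Its mean was 6.79 ± 0.85 RPKM with the KO label and 6.70 ± 0.89 RPKM with the WT label (SD, n = 5 each), a log2 change of 0.02 (SE 0.11, 95% interval -0.21 to 0.25, limma adjusted p = 0.937). The libraries are called KO-labelled for that reason, and every direction rests on the labels. Over all tested genes, 1013 (5.95%) passed a limma adjusted p of 0.05 between the groups, with 681 higher (4.00%) and 332 lower (1.95%) under the KO label. After median-ratio scaling the split was 103 higher and 417 lower, and after quantile normalization 149 and 392.

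Tmem45b RNA was nearly absent from the KO-labelled libraries. The 5 KO-labelled values were 0.209 RPKM (animal 1), 0.881 (animal 4), 0.568 (animal 7), 0 (animal 8) and 0.586 (animal 17). The 5 WT values were 12.6 RPKM (animal 2), 16.9 (animal 9), 7.42 (animal 19), 18.3 (animal 86) and 19.0 (animal 89). The highest KO-labelled library lay far below the lowest WT library, and the groups did not overlap, as was the case for 367 of the 17038 tested genes in this direction (2.15%). The means were 0.449 ± 0.346 RPKM for KO-labelled animals and 14.8 ± 4.9 RPKM for WT animals (SD, n = 5 each), so the WT mean was 33.1 times that of the KO-labelled libraries. On the log2(RPKM + 0.5) scale the change was -4.03 (SE 0.32, 95% interval -4.73 to -3.32). That scale adds 0.5 RPKM to each value, which is close to or above the KO-labelled levels themselves, and so it understates the difference.

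**Figure D1:**
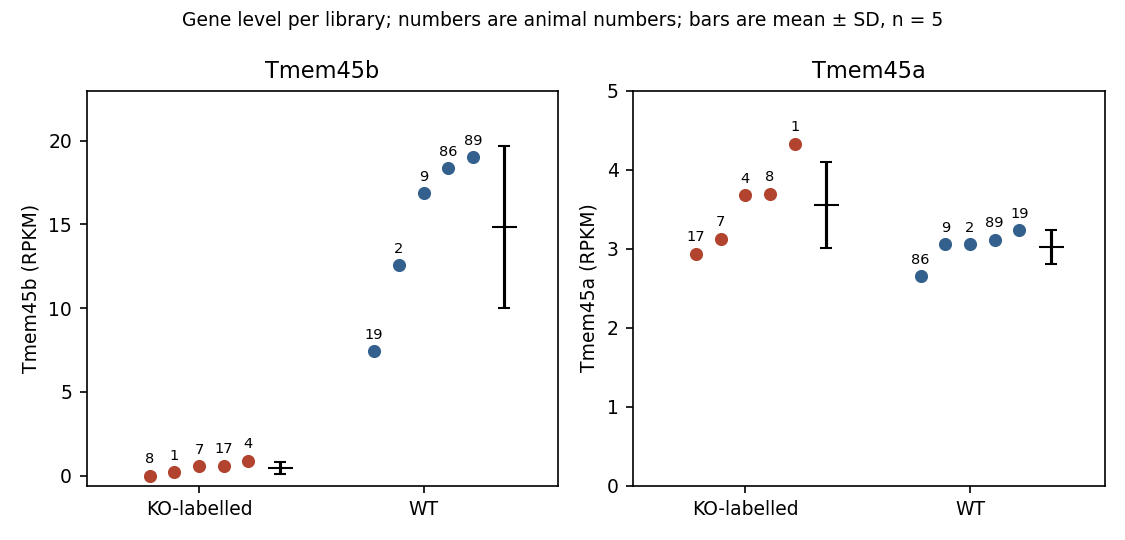
Tmem45b (left) and Tmem45a (right) in RPKM, with 1 point per library, labelled by animal number, KO-labelled libraries left of WT, and mean ± SD beside each group (n = 5). KO-labelled Tmem45b values reach at most 0.881 RPKM against at least 7.42 RPKM in WT, while the groups overlap for Tmem45a.

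The reads behind these values set their precision. Whole reads could be recovered from the RPKM values, and Tmem45b had 5, 28, 16, 0 and 16 reads in KO-labelled animals 1, 4, 7, 8 and 17, or 65 in all. In WT animals 2, 9, 19, 86 and 89 it had 315, 389, 189, 417 and 447 reads, or 1757 in all. KO 4, at 0.881 RPKM, had an exact 95% Poisson interval of 0.586 to 1.27 RPKM, and KO 8, with no reads, had an interval of 0 to 0.153 RPKM. WT 19, the lowest WT library at 7.42 RPKM, had an interval of 6.40 to 8.55 RPKM. These intervals cover counting error only.

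Tmem45b was an RNA of middling to high abundance in WT and of very low abundance in the KO-labelled libraries. In the KO-labelled libraries 0.980% of the tested genes had a mean level below that of Tmem45b, and in WT 78.8% did. Both shares compare levels per length (RPKM). Tested genes needed 0.5 RPKM in 5 libraries. The 5 WT libraries alone were enough for Tmem45b to pass, and KO 4, KO 7 and KO 17 also lay above 0.5 RPKM. A place near the bottom among KO-labelled libraries was thus largely set by that filter.

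The order of the falls gives the place of Tmem45b among all genes, as a description. After its log2 change of -4.03 came those of Scd1 (stearoyl-CoA desaturase), at -3.54 (SE 0.22), of the imprinted gene Nnat (neuronatin), at -3.13 (SE 0.19), and of Pck1 (cytosolic phosphoenolpyruvate carboxykinase), at -3.12 (SE 0.21). The step from the first to the second gene was 0.49 on the log2 scale, which was not tested. With a pseudocount of 1 RPKM in place of 0.5, Scd1 came first at -3.54 and Tmem45b second at -3.42. With a pseudocount of 0.1 the change of Tmem45b was -5.06, and voom on the recovered reads gave -5.57 (SE 0.92). The size of the change thus depended on how the near-zero values were handled, and in both of these settings Tmem45b came first.

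**Figure D2:**
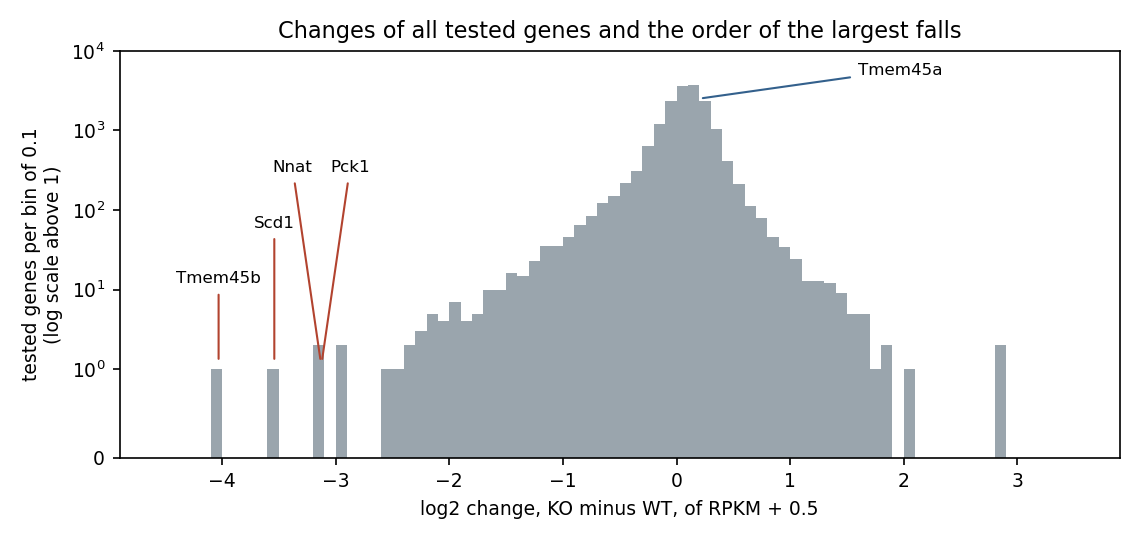
Number of tested genes per bin of 0.1 in log2 change, KO minus WT, on a vertical axis that is logarithmic above 1. The labels mark the 4 lowest changes, from Tmem45b at -4.03 to Pck1 at -3.12, and Tmem45a at 0.19 among the bulk of genes.

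Tmem45a was at a few RPKM in every library of both groups. The 5 KO-labelled values were 4.33 RPKM (animal 1), 3.68 (animal 4), 3.12 (animal 7), 3.69 (animal 8) and 2.94 (animal 17). The 5 WT values were 3.05 RPKM (animals 2 and 9), 3.23 (animal 19), 2.65 (animal 86) and 3.11 (animal 89). The groups overlapped, and 3 of the 5 KO-labelled libraries lay above the highest WT library. The means were 3.55 ± 0.55 RPKM for KO-labelled animals and 3.02 ± 0.22 RPKM for WT animals (SD, n = 5 each), a log2 change of 0.19 (SE 0.10). Its 95% interval, -0.02 to 0.41, leaves room for a small rise and holds no fall of the size seen for Tmem45b. Over all 17038 tested genes the median change was 0.09. Recovered reads numbered 156 to 227 per KO-labelled library and 117 to 160 per WT library. KO 1 was the highest library, and without it the change was 0.13.

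The third copy, Tmem45a2, was close to absent and was below the filter for testing. It had 0 to 3 reads per library in each group, 7 reads over the 5 KO-labelled libraries and 5 over the 5 WT libraries, and its highest value in any library was 0.0613 RPKM.

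The balance between the 2 main copies was turned round between the groups. Tmem45b was at 0.134 ± 0.104 times the RPKM of Tmem45a in the KO-labelled libraries (range 0 to 0.240) and at 4.99 ± 1.83 times in WT (range 2.30 to 6.93; SD, n = 5 each). The more abundant copy was Tmem45a in every KO-labelled library and Tmem45b in every WT library. This follows from the values that chose Tmem45b and is given as a description.

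The transcript table had the same pattern as the gene table for Tmem45b. It holds the same libraries and the contrast that chose the gene, so it is a description and no separate support. It lists 1 Tmem45b transcript, ENSMUST00000048050, with KO-labelled values of 0 RPKM (animal 1), 1.34 (animal 4), 0.713 (animal 7), 0 (animal 8) and 0.833 (animal 17). Its WT values were 13.6 RPKM (animal 2), 17.9 (animal 9), 9.70 (animal 19), 19.8 (animal 86) and 21.4 (animal 89). The groups did not overlap, and the order of the WT libraries was that of the gene table. KO 1, with 5 reads in the gene table, is listed at 0 for the transcript. The program that divided reads among transcripts is not stated, and an exact 0 there may be a failed estimate.

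For Tmem45a the table lists 3 transcripts, and the longest coding one held the largest share in every library. ENSMUST00000023435 averaged 3.50 ± 0.63 RPKM for KO-labelled animals and 3.46 ± 0.28 RPKM for WT animals (SD, n = 5 each), a log2 change of 0.00 (SE 0.13, 95% interval -0.28 to 0.28). It made up 36.8% to 86.9% of the summed Tmem45a transcripts for KO-labelled animals and 73.8% to 100% in WT. The short coding transcript ENSMUST00000135672 ranged from 0 to 2.66 RPKM for KO-labelled animals and from 0 to 0.792 RPKM in WT. The noncoding transcript ENSMUST00000148452 had KO-labelled values of 0 (animal 1), 3.12 RPKM (animal 4), 0.576 (animal 7), 0.561 (animal 8) and 1.27 (animal 17), against 0.361 RPKM in WT 86 and 0 in the other 4 WT libraries. The groups overlapped for all 3 transcripts. The high values of both minor transcripts in KO 4 set the low end of its share.

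The genes that lie beside Tmem45b on chromosome 9 gave no call of their own. The 5 nearest tested genes on each side in RefSeq gene order were, on one side, Nfrkb, Prdm10, Aplp2, St14 and Zbtb44, and on the other Arhgap32, Fli1, Gm22060, Ets1 and Gm10698. By limma 0 of these 10 were called in either direction, where 5.95% of all tested genes were called, and their log2 changes ran from -0.46 to 0.29 with a median of 0.03. Nfrkb, the nearest on one side, which encodes a chromatin remodelling subunit, averaged 5.28 ± 0.33 RPKM for KO-labelled and 5.30 ± 0.34 RPKM for WT animals (SD, n = 5 each). Arhgap32, the nearest on the other, averaged 3.66 ± 0.33 RPKM for KO-labelled and 3.24 ± 0.27 RPKM for WT animals. Aplp2, an amyloid precursor-like protein gene, was the most abundant of them, at 237 ± 22 RPKM for KO-labelled and 228 ± 20 RPKM for WT animals. The lowest change was that of Gm10698, a processed pseudogene whose reads may be shared with its parent gene, at -0.46 (SE 0.18, limma adjusted p = 0.136). At an unadjusted p under 0.05 the count was 1 of 10, and by voom 0 were called. The neighbours with no call that are given by value, here and beside Tmem45a, were picked after their values were seen.

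Around Tmem45a on chromosome 16, 1 of the 10 nearest tested genes was called, where 4.00% of all tested genes were called higher. This was Tbc1d23, which encodes a Golgi-associated TBC domain protein, with a log2 change of 0.28 (SE 0.06, limma adjusted p = 0.0241). It averaged 14.4 ± 0.9 RPKM for KO-labelled and 11.8 ± 0.5 RPKM for WT animals (SD, n = 5 each), with every KO-labelled library above every WT library, as for 1185 of all tested genes (6.96%). Median-ratio scaling, quantile normalization and leaving out KO 1, KO 8, WT 9, WT 19 or WT 89 each ended that call. The 10 changes ran from -1.22, that of the small nucleolar RNA gene Gm22422 (SE 0.55, limma adjusted p = 0.206), to 0.29.

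**Figure D3:**
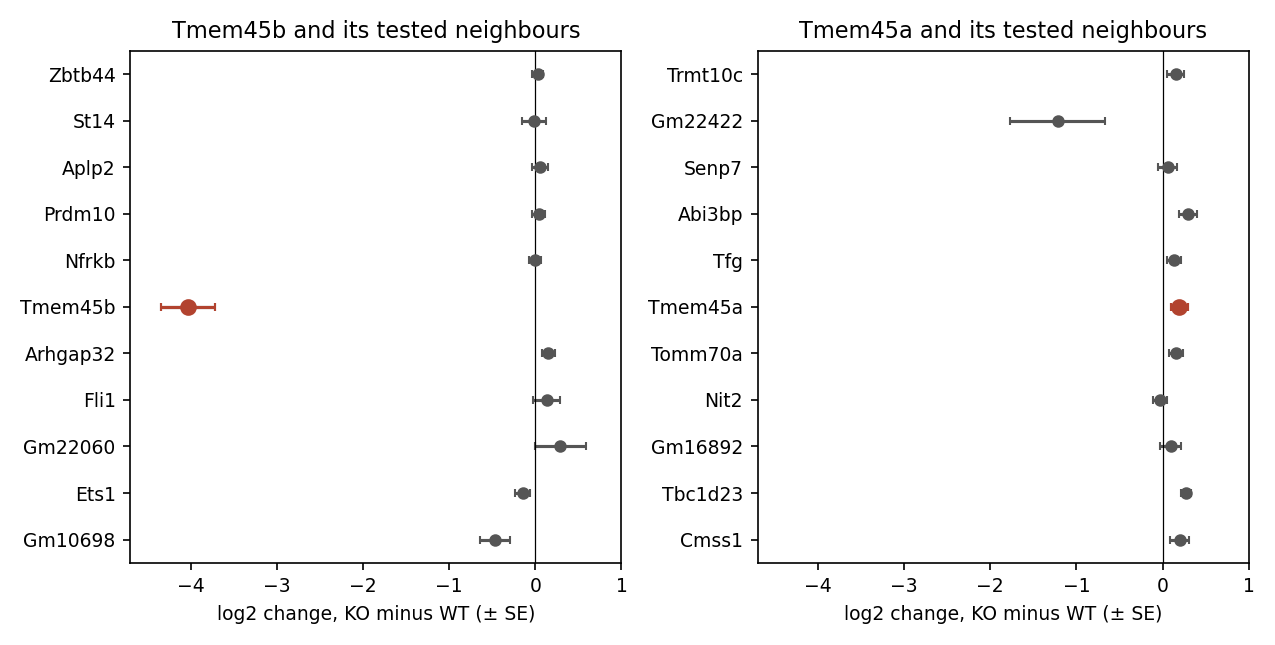
Log2 change, KO minus WT, with its SE, of each member (large point) and of the 5 nearest tested genes on either side of it in RefSeq gene order, drawn by order and not by distance. Tmem45b stands at -4.03 among neighbours between -0.46 and 0.29.

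Genes that define the adipocyte were set beside the members, since Adipoq, Scd1 and Pparg served as context for Tmem45b. Adipoq encodes the adipocyte hormone adiponectin, and Pparg the nuclear receptor that drives fat cell differentiation. Adipoq averaged 307 ± 42 RPKM for KO-labelled and 713 ± 99 RPKM for WT animals, and Pparg 29.7 ± 2.2 RPKM for KO-labelled and 65.0 ± 9.96 RPKM for WT animals (SD, n = 5 each). Of 15 adipocyte genes tested, 14 were called lower and 0 higher, where 1.95% of all tested genes were called lower and 4.00% higher. Their median log2 change was -1.21, against 0.09 for all tested genes, and the single changes ran from -3.54 for Scd1 to -0.63 for Lpl (lipoprotein lipase). The largest falls after Scd1 were those of Retn (resistin), at -2.37 (SE 0.15), Cfd (adipsin), at -2.15 (SE 0.15), and Cidec (a lipid droplet protein), at -2.08 (SE 0.17). The gene not called was Lep (leptin), at -1.01 (SE 0.45, limma adjusted p = 0.196). Several of these falls had been seen in an earlier analysis of the same data, so the count is not independent evidence.

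Scaling Tmem45b to these genes within each library left a difference, given as a description. It was at 0.138% ± 0.101 of the Adipoq RPKM in KO-labelled animals (range 0 to 0.244%) and at 2.05% ± 0.53 in WT (range 1.16% to 2.55%; SD, n = 5 each), with no overlap. Relative to Pparg it was at 1.52% ± 1.25 for KO-labelled animals and 22.4% ± 5.2 in WT (SD, n = 5 each), again with no overlap. Relative to Scd1 it was at 0.225% ± 0.217 and 0.611% ± 0.202 in the KO-labelled and WT libraries (SD, n = 5 each), and here the groups overlapped, since KO 4 stood at 0.559% and WT 19 at 0.350%. The WT mean of the share was 14.9 times the KO-labelled mean for Adipoq, 14.7 times for Pparg and 2.72 times for Scd1. Tmem45a was at 1.17% ± 0.24 of Adipoq for KO-labelled animals and 0.432% ± 0.082 in WT (SD, n = 5 each). Its share of Pparg was 12.1% ± 2.4 for KO-labelled animals and 4.76% ± 1.01 in WT. Its share of Scd1 was 1.78% ± 0.56 for KO-labelled animals and 0.129% ± 0.034 in WT. All these shares also carry the lower levels of Adipoq, Pparg and Scd1 in the KO-labelled libraries.

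Markers of other cell types were set beside the members as well. Because TMEM45 genes are known from epithelia, 16 epithelial genes were looked at. Of these, 7 passed the filter and 0 were called by limma in either direction, where 5.95% of all tested genes were called. The count was 1 at an unadjusted p under 0.05 and 0 by voom. The summed level of the 16 genes ranged from 29.0 to 44.4 RPKM for KO-labelled animals and from 24.3 to 36.9 RPKM in WT, and the groups overlapped. The 9 others, among them the basal keratin gene Krt5, the tight junction gene Cldn4 and the epithelial factor genes Esrp1, Elf3 and Grhl2, reached at most 0.661 RPKM in any library, and none of the 16 was at 0 in all libraries. Krt8, a keratin gene and the most abundant of them, averaged 10.6 ± 3.1 RPKM for KO-labelled and 8.98 ± 1.92 RPKM for WT animals. Cldn3, a tight junction gene, averaged 9.17 ± 3.24 RPKM for KO-labelled and 6.75 ± 1.78 RPKM for WT animals (SD, n = 5 each).

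Neutrophil and monocyte markers had a higher sum in every KO-labelled library than in any WT library, an order that 6.96% of single tested genes also had. Their summed level over 6 genes ranged from 446 to 817 RPKM for KO-labelled animals and from 187 to 368 RPKM in WT, and 3 of 6 were called higher, S100a9, Ccr2 and Retnlg, where 4.00% of all tested genes were. S100a9, a calcium-binding protein gene of neutrophils, averaged 257 ± 64 RPKM for KO-labelled and 110 ± 27 RPKM for WT animals (SD, n = 5 each). S100a8, named after its values were seen, averaged 323 ± 135 RPKM for KO-labelled and 127 ± 39 RPKM for WT animals. Its groups overlapped and it was not called (limma adjusted p = 0.0529). S100a8 and S100a9 made up most of the summed level of this list. The call of Retnlg, a neutrophil resistin-like gene, at 13.0 ± 4.8 RPKM for KO-labelled and 4.47 ± 2.72 RPKM for WT animals, ended in 7 of the 10 runs that left out 1 library. The summed macrophage list ranged from 1866 to 2188 RPKM and from 1395 to 1923 RPKM in the KO-labelled and WT libraries, with 1 of 8 called higher, Itgam (4.00% of all tested genes). The summed fibroblast and progenitor list ranged from 2000 to 2279 RPKM and from 1598 to 2166 RPKM in the KO-labelled and WT libraries, with 1 of 8 called higher, Lum (again against 4.00%). The endothelial list ranged from 105 to 153 RPKM and from 122 to 151 RPKM in the KO-labelled and WT libraries, with 1 of 8 called lower, Kdr (1.95% of all tested genes). The calls of Itgam, Lum and Kdr ended in 6, 8 and 9 of the 10 runs that left out 1 library, and both scalings ended those of Itgam and Lum. The mesothelial list ranged from 246 to 286 RPKM for KO-labelled animals and from 224 to 250 RPKM in WT. The nerve and Schwann cell list ranged from 10.98 to 16.2 RPKM for KO-labelled animals and from 10.3 to 14.6 RPKM in WT. By limma 0 of 7 tested mesothelial and 0 of 3 tested nerve genes were called, where 5.95% of all tested genes were. At an unadjusted p under 0.05 the counts were 3 and 1, and by voom 1 and 0. The part of any of these cell types in the values of Tmem45b and Tmem45a was not tested.

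Tmem45a is known as a gene of the response to low oxygen in human cancer cells, so 20 hypoxia response genes were set beside it. All 20 were tested, 3 were called lower and 2 higher, where 1.95% of all tested genes were called lower and 4.00% higher. Their median log2 change was 0.17, against 0.19 for Tmem45a and 0.09 for all tested genes. The 3 lower genes were Pfkfb3, a regulator of glycolysis, at -1.28 (SE 0.15), Bnip3, a mitochondrial protein of mitophagy, at -0.80 (SE 0.13), and Vegfa, the angiogenic growth factor, at -0.64 (SE 0.15). The 2 higher genes were the lipid droplet gene Hilpda, at 0.51 (SE 0.13), and P4ha1, a collagen prolyl hydroxylase gene named after its value was seen, at 0.49 (SE 0.07). The call of Hilpda was lost under both scalings and in 9 of the 10 runs with a library removed, and that of Vegfa in 7 of those 10. The calls thus went in both directions. Of the 20 changes, called or not, 16 lay above 0 and 4 below, where the median of all tested genes was also above 0.

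**Figure D4:**
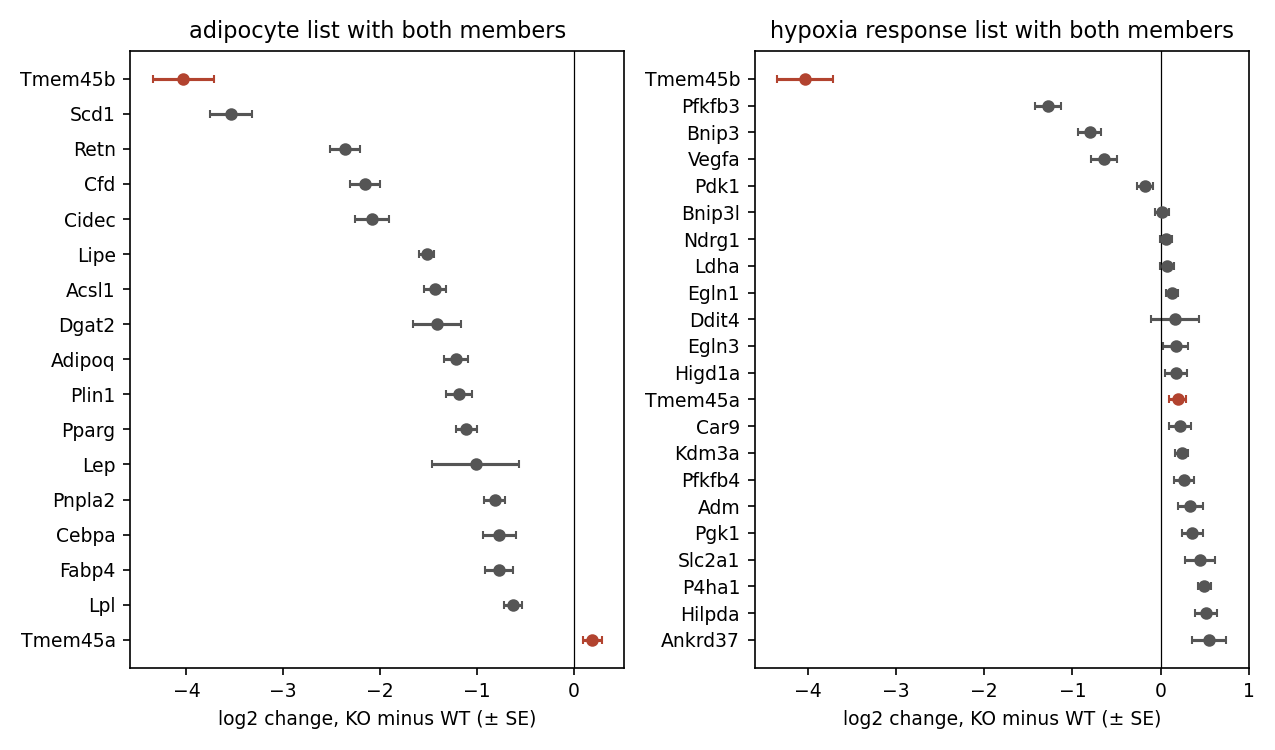
Log2 change, KO minus WT, with its SE, of the 15 adipocyte genes (left) and the 20 hypoxia response genes (right), with Tmem45b and Tmem45a drawn in red in both. All adipocyte genes lie between -3.54 and -0.63, between the 2 members, and Tmem45a lies inside the range of the hypoxia response genes.

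Variation between animals of the same group gives a comparison that the choice of Tmem45b did not use. Each group's mean was subtracted from the log2 values, so that the difference between the groups was removed, and the deviations of the 10 libraries were correlated. The 7 relations computed form 1 family, with 2-sided exact permutation tests over the 14400 reorderings of libraries within groups. Tmem45b deviated with Adipoq, at Pearson r = 0.75 (exact permutation p = 0.0215, adjusted 0.151) and a Spearman coefficient of 0.72 (exact permutation p = 0.0326, adjusted 0.118). Within the groups r was 0.80 among the 5 KO-labelled and 0.70 among the 5 WT libraries. The KO-labelled deviations of Tmem45b rest on 0 to 28 reads and on the pseudocount of 0.5, here and in the relations that follow. The r of Tmem45b with Adipoq was 0.71 without KO 8 and WT 2, the libraries farthest from the median of Adipoq. Without KO 8 alone it was 0.62 (adjusted exact permutation p = 0.363), and with each library left out in turn it ran from 0.62 to 0.83. This relation did not pass the adjustment over the family.

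The other relations had smaller r and did not pass the adjustment either. With Pparg, Tmem45b had r = 0.61 (exact permutation p = 0.0688, adjusted 0.241) and Spearman coefficient 0.30 (exact permutation p = 0.435, adjusted 0.610), and r was 0.36 without WT 19 and WT 9. Within the groups r with Pparg was 0.16 among KO-labelled and 0.91 among WT libraries. Without KO 4, r with Pparg was 0.86 with an adjusted exact permutation p of 0.0292, and over all alternatives that p ran from 0.0292 to 0.555 (without WT 19, r = 0.30). With Scd1, Tmem45b had r = 0.27 (exact permutation p = 0.490, adjusted 0.572) and Spearman coefficient 0.07 (exact permutation p = 0.878, adjusted 0.878), and r was -0.02 without KO 7 and WT 86. Within the groups it was 0.12 among KO-labelled and 0.47 among WT libraries. Between Tmem45b and Tmem45a there was no relation that passed, at r = -0.47 (exact permutation p = 0.213, adjusted 0.372) and Spearman coefficient -0.52 (exact permutation p = 0.160, adjusted 0.373), and r was -0.44 without KO 17 and KO 1. Within the groups it was -0.46 among KO-labelled and -0.58 among WT libraries.

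Tmem45a had no relation that passed. It had r = -0.09 with Adipoq (exact permutation p = 0.803, adjusted 0.803; Spearman coefficient -0.20, exact permutation p = 0.618, adjusted 0.721) and r was 0.03 without KO 8 and WT 2. Within the groups this r was 0.07 among KO-labelled and -0.46 among WT libraries. With Scd1 it had r = -0.44 (exact permutation p = 0.276, adjusted 0.386; Spearman coefficient -0.44, exact permutation p = 0.277, adjusted 0.485), and r was 0.21 without KO 7 and WT 86. Within the groups r with Scd1 was -0.26 among KO-labelled and -0.94 among WT libraries. With Pparg it had r = -0.41 (exact permutation p = 0.151, adjusted 0.352) and Spearman coefficient -0.68 (exact permutation p = 0.0337, adjusted 0.118), and r was -0.52 without WT 19 and WT 9. Within the groups that r was -0.57 among KO-labelled and -0.47 among WT libraries.

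**Figure D5:**
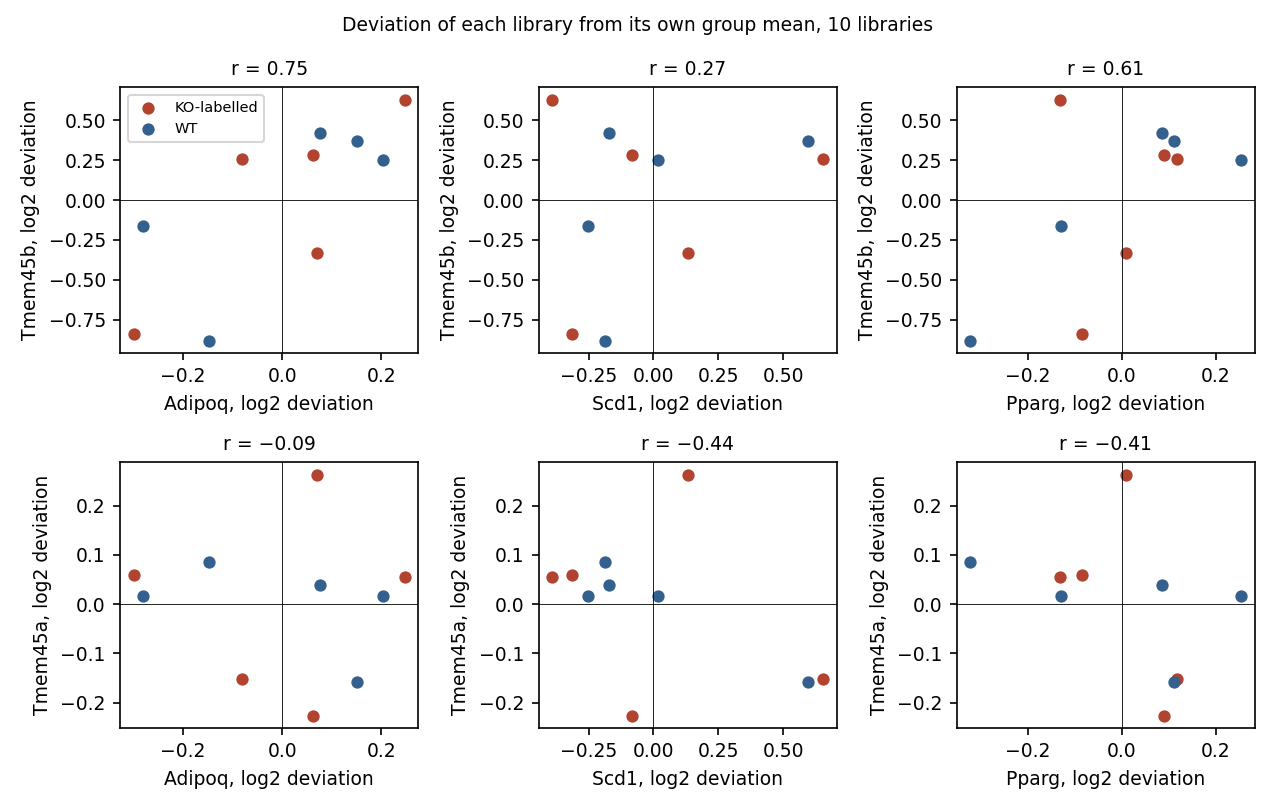
Deviation of each of the 10 libraries from its own group's mean log2(RPKM + 0.5), for Tmem45b (top) and Tmem45a (bottom) against Adipoq, Scd1 and Pparg, with Pearson r above each plot and KO-labelled libraries in red and WT in blue. The strongest of these relations is that of Tmem45b with Adipoq, r = 0.75, which did not pass the adjustment over 7 relations.

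The genes whose deviations within groups were most like those of each member were also ranked, as a description over 10 libraries and 11325 genes. For Tmem45b they were Dpp4 (a dipeptidyl peptidase of progenitor cells, r = 0.96), Msrb3 (methionine sulfoxide reductase, r = 0.91), Oxnad1 (r = 0.91), Sesn3 (sestrin 3, r = 0.91) and Slc2a13 (a myo-inositol transporter, r = 0.90). None of these 5 was called between the groups, where 5.95% of all tested genes were called in either direction. Their log2 changes ran from -0.02 to 0.27. For Tmem45a they were Zc3h12c (r = 0.96), the Mediator subunit gene Med27 (r = 0.93), Clcn5 (a chloride-proton exchanger, r = 0.91), Prr15 (r = 0.89) and Fcgr2b (an inhibitory Fc receptor, r = 0.88). Of these, Med27, Prr15 and Fcgr2b were called higher, where 4.00% of all tested genes were, at log2 changes of 0.42, 0.46 and 0.43, and none of these 3 calls held under either scaling. An r over 0.5 was reached by 7.66% of the genes for Tmem45b and by 5.96% for Tmem45a. That share is no background for the listed r, which are the 5 highest among 11325 genes. Picking the highest of so many genes over 10 libraries by itself gives high r, and none of these r was tested. All values of 1 library come from the same sequencing depth, so genes compared across libraries share it.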

How the data were processed

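The labels and the 2 deposited tables were used as they stand. The authors deposited RPKM values per gene and per transcript, and the file names are the source of that unit. Per the submitters' processing notes, bcl2fastq, STAR, Subread and featureCounts were used. Genome build, annotation, strand setting, read length and transcript program: not given in the sources used here. After repeats with identical values were dropped, 40503 genes and 84046 transcripts stood. The steps of the RPKM values gave whole reads, to within 0.001 reads, for all 25122 genes detected in 3 or more libraries.

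Genes at 0.5 RPKM or more in at least 5 libraries were tested with limma 3.58.1 in R 4.3.3 on log2(RPKM + 0.5), with eBayes trend and robust, 2-sided, Benjamini-Hochberg adjusted over all tested genes, called under 0.05. The fit was tested on simulated data, in which every change put in was smaller than that of Tmem45b, so a fall of that size was not covered. KO and WT were compared with no covariate, and whether animals shared litters or batches is not stated. Named genes were the members, Med19, Adipoq, Scd1, Pparg, the next 3 falls, up to 4 called members per list or the 2 most abundant, called neighbours and the 5 most alike genes per member. Genes were compared with GENCODE M21 and RefSeq GRCm38.p6 by name. The members and lists were chosen with earlier results of these data known. Alternatives were pseudocounts, filters, scalings, eBayes settings, leaving out each library and, added after seeing the data, voom on recovered reads.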

Additional observations from a re-analysis of the deposited data

Results flagged for a closer look

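Among 48 genes and transcripts named in the text, 7 had a library that stood apart from the other 4 of its group by Dixon's test, where chance flags about 1 in 20 groups and 96 groups were looked at. None of them was a gene value of Tmem45b or Tmem45a. The noncoding Tmem45a transcript ENSMUST00000148452 was at 0.361 RPKM in WT 86 and at 0 in the other WT libraries. Scd1 was at 3642 RPKM in WT 86, with the others of WT between 2024 and 2439 RPKM. Pck1 was at 33.1 RPKM in KO 7, against 20.05 to 23.5 RPKM in the other KO-labelled libraries. Kdr was at 18.1 RPKM in KO 8, against 10.7 to 12.5 RPKM in the other KO-labelled libraries. In WT 2, Cldn3 was at 9.90 RPKM (5.58 to 6.26 RPKM in the other WT libraries) and Retnlg at 9.27 RPKM (2.64 to 3.75 RPKM). Fcgr2b was at 44.4 RPKM in WT 86, with the other WT libraries between 50.3 and 51.8 RPKM.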

How the results depend on the processing

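The fall of Tmem45b kept its direction in every alternative run. Its log2 change was -5.06 with a pseudocount of 0.1, -3.42 with a pseudocount of 1 (where Tmem45b ranked 2 among falls) and -5.57 with voom, an alternative added after seeing the data. It ran from -4.25 to -3.82 when each library was left out in turn, always at rank 1. The change of Tmem45a stayed above 0, at 0.12 with median-ratio scaling and 0.13 to 0.25 with each library left out.

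Adipocyte genes called lower numbered 13 or 14 throughout. Hypoxia response genes called higher fell to 1 with no filter, median-ratio scaling, quantile normalization or eBayes without trend or robust, and numbered 1 to 2 with a library left out. The called neighbour of Tmem45a became 0 under both scalings and 0 to 1 with a library left out. No neighbour of Tmem45b was called in any alternative.

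Genes called higher numbered 292 with no filter, 103 with median-ratio scaling and 149 with quantile normalization. With a library left out they ran from 192 to 693. Removal of KO-labelled animals 1, 7, 8 and 17 gave 192, 342, 237 and 305, and removal of WT animals 9, 19, 86 and 89 gave 381, 337, 222 and 251. Those lower ran from 205, without KO 1, to 313. The causes were not tested. Depth limits Tmem45b in the KO-labelled libraries, where it rests on 0 to 28 reads. No paired analysis was possible because the animal numbers of the groups are not shared.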
